A study of Homo sapiens with 12 samples.

Results

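The RNAs described here are the 4 small nuclear RNAs (snRNAs) that belong to the minor spliceosome alone, U11, U12, U4atac and U6atac, measured in the bladder cancer line T24, an established human line. They were taken as every entry of the deposited gene tables that carries the gene name RNU11, RNU12, RNU4ATAC or RNU6ATAC, which gave 6 of 60504 entries. RNU11 and RNU12 each have 2 entries that start at the same base, while RNU4ATAC and RNU6ATAC have 1 each. Values are therefore given by gene identifier and also summed over the entries of one name.

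The minor spliceosome removes a small class of introns with distinctive splice sites. U11 and U12 form one particle in which U11 pairs with the 5′ splice site and U12 with the branch site. U4atac and U6atac arrive base paired to each other together with U5, the one snRNA shared with the major spliceosome, and U6atac then replaces U11 at the 5′ splice site. None of these RNAs has a poly(A) tail. U11, U12 and U4atac are made by RNA polymerase II and bind a ring of Sm proteins, and U6atac is made by RNA polymerase III and ends in a run of U.

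RNA was sequenced in 12 bulk libraries. In the knockout comparison, 2 libraries labelled knockout U11 stood against 2 libraries of untreated T24. In the overexpression comparison, 6 libraries labelled overexpression U11 stood against 2 other libraries of untreated T24. The overexpression libraries carry the line labels 79, 86 and 87, which the labels do not explain, with 2 libraries each. The knockout cells were made with 2 guides against the U11 gene in a vector that also expresses Cas9, and are a monoclonal line. The overexpression cells were monoclonal lines with a stably kept pcDNA vector that carries U11. No source used here says that libraries of one group came from separate cultures, so the P values measure only the spread between these libraries, which may be technical. In the overexpression comparison each line label, and the controls, have 1 library in each of 2 library series, told apart by the start of the library number, whereas all 4 libraries of the knockout comparison belong to the remaining series. The libraries held 13.7, 14.3, 15.2 and 14.9 aligned gigabases in the knockout comparison, and from 9.07 to 15.3 in the overexpression comparison. All 6 epithelial and mesenchymal marker genes checked (KRT7, KRT8, KRT18, KRT19, VIM and CDH2) were expressed in every library, the least abundant reading of any being 90.3 TPM for KRT19. Of 5 blood and endothelial markers, PTPRC, CD3E, PECAM1 and VWF stayed at or under 0.915 TPM (CD3E), and HBB reached 3.65 TPM. HBB read 2.65 to 3.65 TPM in the library series of overexpression control replicate 2, and at most 0.98 TPM in the other series. CD3E (0.502 to 0.915 TPM against at most 0.052) and PTPRC (0.265 to 0.496 against at most 0.068) divided the same way. PECAM1 and VWF did not, and the cause was not tested.

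The sequences of the 4 snRNAs are shown because the results turn on where their entries begin and end. They were read from hg38 at the coordinates of the deposited entries, which have the same coordinates for 6 of 6 identifiers in GENCODE release 44. U11 is ENSG00000274978 at chr1:28648600-28648733 (plus strand, 134 bases), U12 is ENSG00000276027 at chr22:42615244-42615393 (plus strand, 150 bases), U4atac is ENSG00000264229 at chr2:121530881-121531007 (plus strand, 127 bases) and U6atac is ENSG00000221676 at chr9:134164439-134164564 (minus strand, 126 bases). GENCODE gives each of these 4 as a gene of type snRNA. Each is written 5′ to 3′ in the DNA alphabet. Capitals mark the letters AATTTTT, the core of an Sm binding site, and in RNU6ATAC the run of T at the 3′ end.
RNU11: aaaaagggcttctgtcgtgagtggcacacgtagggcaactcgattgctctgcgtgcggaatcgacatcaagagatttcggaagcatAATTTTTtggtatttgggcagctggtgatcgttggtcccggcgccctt
RNU12: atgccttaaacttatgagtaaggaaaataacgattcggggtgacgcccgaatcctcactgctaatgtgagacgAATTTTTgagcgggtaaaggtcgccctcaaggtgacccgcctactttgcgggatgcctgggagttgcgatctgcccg
RNU4ATAC: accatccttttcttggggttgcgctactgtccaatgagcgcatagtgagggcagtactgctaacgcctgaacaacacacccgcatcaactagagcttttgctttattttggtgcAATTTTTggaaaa
RNU6ATAC: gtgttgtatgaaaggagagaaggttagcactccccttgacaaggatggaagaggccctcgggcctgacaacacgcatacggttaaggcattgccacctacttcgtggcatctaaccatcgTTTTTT
The letters AATTTTT stand once each in RNU11 (bases 87 to 93), RNU12 (bases 74 to 80) and RNU4ATAC (bases 115 to 121), and are absent from RNU6ATAC. Searched on the transcribed strand, they were found in 114 of the 1577 GENCODE snRNA transcripts of 100 to 200 bases (7.23%). RNU6ATAC ends in 6 T.

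The other entries are a 131-base one for RNU11 (ENSG00000270103, chr1:28648600-28648730), which lacks only the last 3 bases (ctt) of the 134-base entry, and a 664-base one for RNU12 (ENSG00000270022, chr22:42615244-42615907), which holds the whole 150-base entry and 514 further bases downstream. GENCODE lists both as genes of type lncRNA. A read inside the shared bases fits both entries of a name, so how reads were divided between them depends on the assembler.

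The targets of the 2 knockout guides are shown because they say which bases of U11 were aimed at. They are written 5′ to 3′ on the plus strand with the 3-base PAM in capitals.
SG1: ctgtcgtgagtggcacacgtAGG
SG2: cagctggtgatcgttggtccCGG
SG1 matched bases 12 to 31 of U11 (chr1:28648611-28648630) and SG2 matched bases 105 to 124 (chr1:28648704-28648723). The usual Cas9 cut positions, after bases 28 and 121, lie 93 bases apart on either side of the capitals in RNU11. The deposited tables hold 1 mean value for a whole entry, so the bases that reads covered within U11 were not seen.

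In untreated T24 of the knockout comparison all 4 snRNAs were measured well above 1 TPM (Stringtie's transcript level, scaled by length so that every library sums to one total). To set levels of different genes side by side, the bases aligned to all entries of a name were divided by the length of the snRNA and by the aligned gigabases of the library. On that scale, RNU12 was the most abundant, at 65.4 and 64.4. RNU11 followed at 16.1 and 17.4. RNU6ATAC, at 5.93 and 6.72, and RNU4ATAC, at 4.90 and 7.92, came last, and their ranges overlapped, so those neighbours in the order were not separated. The libraries labelled U11 knockout had the same leading pair on that scale, with 85.0 and 89.9 for RNU12 and 21.1 and 26.8 for RNU11. There, all RNU12 bases were assigned to the 664-base entry, so its lead rests on counting them over the 150 bases of the snRNA. On summed TPM the order was the reverse, with 31.6 and 37.4 for RNU11 against 28.8 and 28.3 for RNU12.

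In the overexpression comparison the 4 snRNAs were close to 0 in the controls. RNU11 read 0.0334 and 0.623 TPM, RNU12 read 0.370 and 0.145 TPM, RNU4ATAC read 0.0243 and 0 TPM, and RNU6ATAC read 0.485 and 0 TPM. The means of the untreated libraries were 68.8-fold higher in the knockout comparison for RNU11, 275-fold for RNU12 and 35.2-fold for RNU6ATAC. The control mean in the overexpression comparison rested on 1 library for RNU4ATAC (11 aligned bases) and for RNU6ATAC (218 aligned bases). For RNU11 its 2 controls lay far apart, so these folds are rough. Other abundant RNAs without a poly(A) tail were set apart in the same way. RN7SK, the RNA that holds the elongation factor P-TEFb inactive, read 61304 and 58647 TPM in the untreated libraries of the knockout comparison, against 0.254 and 0.998. RMRP, the RNA of RNase MRP, read 34805 and 32205 TPM against 1.25 and 0.423, and RNU2-2P, a U2 gene, read 4571 and 5135 TPM against 0.796 and 0.0419. Some entries at low levels were not set apart in this way. RNU7-1 read 0.165 and 0.002 TPM against 0.107 and 0.05, and RNU6-8 read 8.41 and 6.85 TPM against 6.06 and 3.36.

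**Figure D1:**
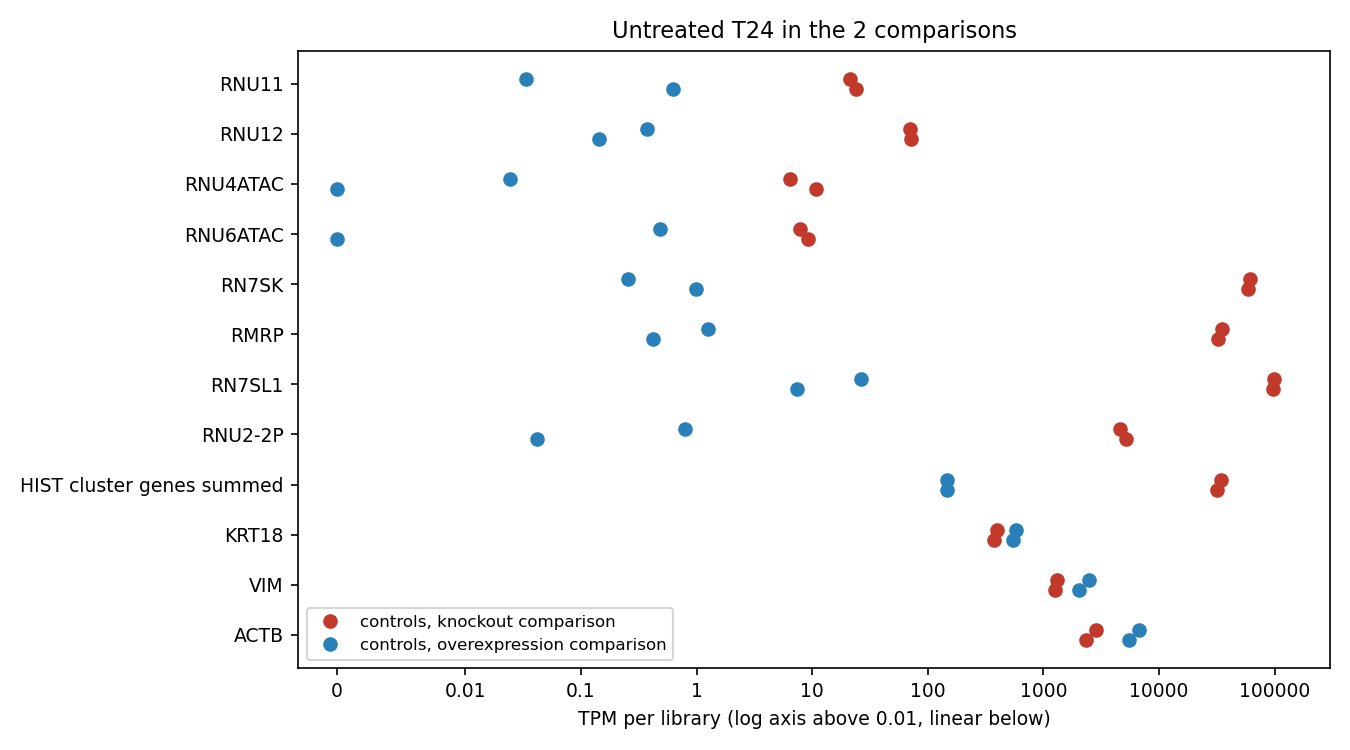
Level in TPM (log axis above 0.01) of the 4 minor spliceosome snRNAs, of other RNAs without a poly(A) tail, of the summed HIST genes and of 3 polyadenylated mRNAs (KRT18, VIM, ACTB) in the 2 untreated T24 libraries of each comparison, 1 point per library. All 4 snRNAs lie under 1 TPM in the controls of the overexpression comparison and above 6 TPM in those of the knockout comparison, whereas KRT18, VIM and ACTB are lower in the knockout comparison.

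Over all 12 libraries, 16 entries of RNAs without a poly(A) tail held from 280529 to 299294 TPM in the knockout comparison and from 12.9 to 43.5 TPM in the overexpression comparison, RN7SL1 being the most abundant in 11 libraries and RN7SL2 in line 79 replicate 1. The 18 major spliceosome snRNA genes held 8847 to 11298 TPM and 2.95 to 8.18 TPM. ACTB, a polyadenylated mRNA, read 2879 and 2357 TPM against 6692 and 5456. The labels give polyA RNA for all 12 libraries, and the methods of the study name depletion of ribosomal RNA. The comparison, the library series and any difference in library preparation cannot be told apart, so levels are compared only within a comparison from here on.

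RNU11 was higher, not lower, in the libraries labelled U11 knockout. Its summed level was 21.4 and 23.8 TPM in the controls and 31.6 and 37.4 TPM in the labelled libraries, so the groups did not overlap, and the ratio of the means was 1.53. The bases aligned to RNU11 numbered 29471 and 33410 in the controls and 42914 and 53552 in the labelled libraries, or 2159 and 2330 against 2828 and 3592 for each aligned gigabase, a ratio of 1.43. Both labelled libraries therefore held more U11 sequence than either control, with or without scaling by TPM. All of it was assigned to the 134-base entry in these 4 libraries, and the 131-base entry was listed at 0. By quantitative PCR, the study reported significantly less U11 in its knockout line than in wild-type T24, and more in its overexpression line. Why the sequencing and the PCR differ for the knockout label was not tested.

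The fit across all 14356 tested entries was made with limma on log2(TPM + 1). An entry was called where its unadjusted P lay under 0.05 and its fold change reached 1.5. RNU11 had a log2 difference of 0.59 (SE 0.13, limma adjusted P = 0.0626). That passed the call rule and missed an adjusted threshold of 0.05. The median log2 difference of all tested entries was 0.11, and with median ratio scaling RNU11 stood at 0.44, under the fold threshold. The call was also lost without control replicate 1 (0.51) or without labelled knockout replicate 2 (0.47), in both on the fold threshold. An exact permutation test of the summed TPM gave p = 0.333 (two-sided), the smallest that 2 libraries against 2 allow. Beside it, 60.2% of the tested entries had groups that did not overlap.

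Of the 6 entries, 5 passed the filter of 1 TPM in 2 libraries in this comparison and 3 were called, 1 of RNU11 and both of RNU12, beside 11.8% of all tested entries called in either direction. One of the 3, the 150-base entry of RNU12, passed the filter only through the controls, so its direction was fixed and the count supports nothing. The remaining entry, the 131-base one of RNU11, was listed at 0 throughout.

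RNU12 moved between its entries. In the controls, the 150-base snRNA entry held 64.8 and 67.1 TPM and the 664-base entry 4.93 and 4.78 TPM. With the knockout label, the 150-base entry was listed at 0 in both libraries, and the 664-base entry held 28.8 and 28.3 TPM. Neither entry had overlapping groups, as was so for 60.2% of all tested entries, and the values lay in opposite directions. In the limma fit the 664-base entry was higher by 2.34 (log2, SE 0.11, adjusted P = 0.0047). The 150-base entry stood at -6.06 (SE 0.11), a description, since it passed the filter through the controls alone, which fixed its direction, and the pseudocount set its size.

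What RNU12 did in total depended on the quantity. Summed over its entries, RNU12 was lower on the TPM scale, at 69.7 and 71.8 in the controls and 28.8 and 28.3 in the labelled libraries, a ratio of 0.404 (limma log2 difference -1.28, SE 0.09, adjusted P = 0.00825). In aligned bases it was higher, with 133819 and 138489 in the controls and 193580 and 201014 in the labelled libraries. For each aligned gigabase that came to 9803 and 9658 against 12757 and 13485, a ratio of 1.35. The share of RNU12 bases on the 664-base entry was 25.2% and 23.98% in the controls and 100% in both labelled libraries, and a base on that entry counts for less TPM because TPM divides by the entry's length. With all RNU12 bases divided by 150 bases instead, the level was 86.6 and 88.2 in the controls and 127.5 and 125.4 in the labelled libraries, and the limma log2 difference was 0.53 (SE 0.08, adjusted P = 0.0315), under the fold threshold of the call rule. This last scale was added after the values were seen. POLDIP3, the nearest gene, lies on the opposite strand with its start 282 bases from that of RNU12 and runs away from it. It read 44.1 and 37.3 TPM in the controls and 23.9 and 38.5 in the labelled libraries, and its part in the RNU12 values was not tested.

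**Figure D2:**
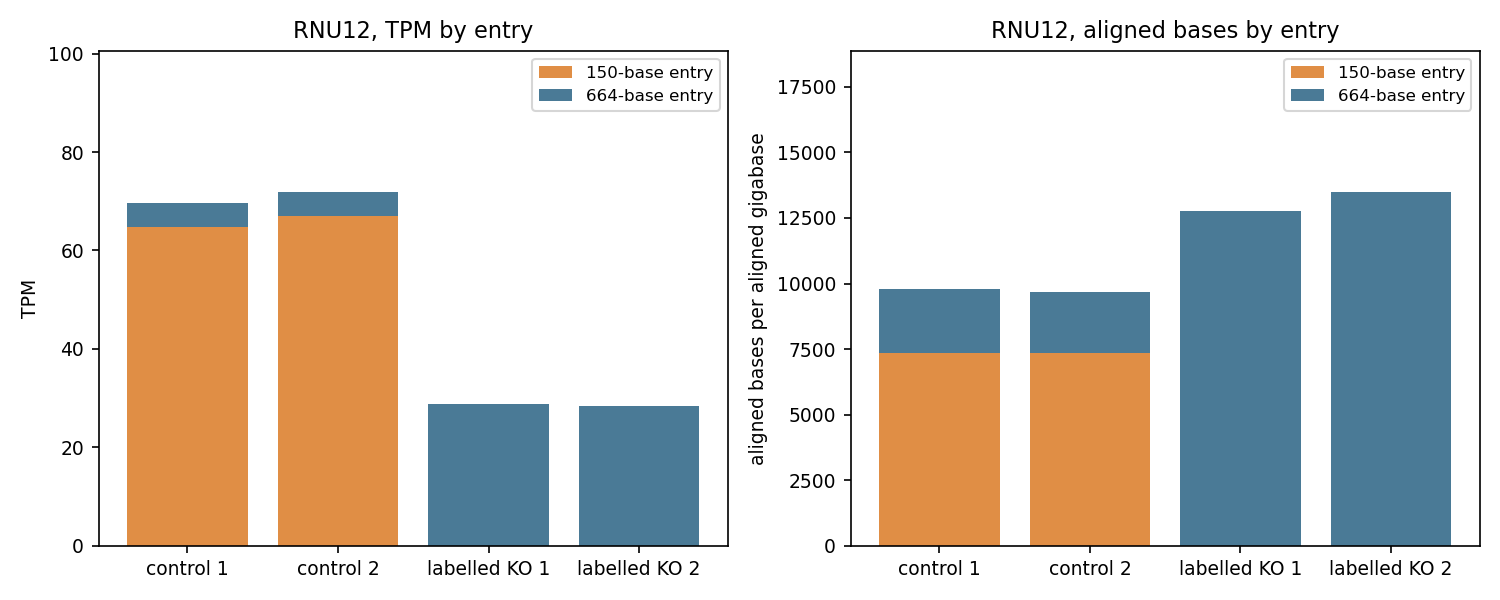
RNU12 in the 4 libraries of the knockout comparison, stacked by entry (orange, 150-base snRNA; blue, 664-base lncRNA), as TPM (left) and as aligned bases per aligned gigabase (right). The left bars drop from 69.7 and 71.8 to 28.8 and 28.3, the right bars rise from 9803 and 9658 to 12757 and 13485, and no orange is left in the labelled libraries.

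RNU4ATAC and RNU6ATAC have 1 entry each and were not called. RNU4ATAC, which holds U6atac inactive by base pairing until the spliceosome assembles, read 6.49 and 10.9 TPM in the controls and 10.3 and 9.88 in the libraries labelled U11 knockout. The labelled libraries lay inside the range of the controls. Its log2 difference was 0.24 (SE 0.24, limma adjusted P = 0.556), and the exact permutation p was 1. RNU6ATAC, which with U12 forms the catalytic core, read 7.86 and 9.21 TPM in the controls and 10.2 and 12.6 in the labelled libraries. Both labelled libraries were above both controls, beside the 60.2% of all tested entries whose groups did not overlap. Its log2 difference was 0.37 (SE 0.16, limma adjusted P = 0.191), and the exact permutation p was 0.333. Without labelled knockout replicate 2 the difference was 0.23.

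The major spliceosome snRNA genes are the nearest relatives of these RNAs. Of 18 such genes, 17 were tested in the knockout comparison, 4 were called higher and none lower, and 15 had a log2 difference above 0, as had 63.7% of all entries, with a median of 0.24 against 0.11 for all entries. Entries called higher made up 8.61% of those tested. RNU5A-1, a gene of the U5 RNA that both spliceosomes use, read 44.7 and 56.8 TPM in the controls and 78.3 and 86.0 in the labelled libraries (log2 difference 0.69, SE 0.14, limma adjusted P = 0.0559). RNU5B-1 differed by 0.62 (limma adjusted P = 0.0794), RNU4-2 by 0.62 (adjusted P = 0.0202) and RNU1-2 by 0.66 (adjusted P = 0.165). These genes have near-identical copies, and the division of reads among copies is uncertain. Of 16 entries of other RNAs without a poly(A) tail, 13 were tested, 0 were called higher and 1 lower, with a median of -0.001, beside 3.15% of all tested entries called lower and 11.8% either way. It was the minor of the 2 entries named RPPH1, the RNA of RNase P, at 2.71 and 2.48 TPM in the controls and 1.08 and 1.23 in the labelled libraries (-0.74, limma adjusted P = 0.041). The main RPPH1 entry, at 31148 and 28424 against 24495 and 23793 TPM, was not called (-0.30, limma adjusted P = 0.0611).

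The overexpression comparison was close to blank for 3 of the 4 snRNAs, and RNU11 separated the lines. RNU11 summed over its entries read 0.0334 and 0.623 TPM in the controls and 0.183 and 0.412 TPM in line 79. It read 3.98 and 3.72 TPM in line 86 and 61.9 and 53.6 TPM in line 87. Line 79 lay inside the range of the controls, whereas lines 86 and 87 were above every control and did not overlap each other. Of all tested entries, 43.4% did not overlap between line 86 and the controls, 48.2% between line 87 and the controls and 49.2% between lines 87 and 86, so a lack of overlap was common at 2 libraries against 2. The aligned bases behind these values were 16 and 439 in the controls, 114 and 332 in line 79, 2306 and 2086 in line 86, and 35656 and 28720 in line 87. The controls and line 79 thus rested on few reads of 150 bases.

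**Figure D3:**
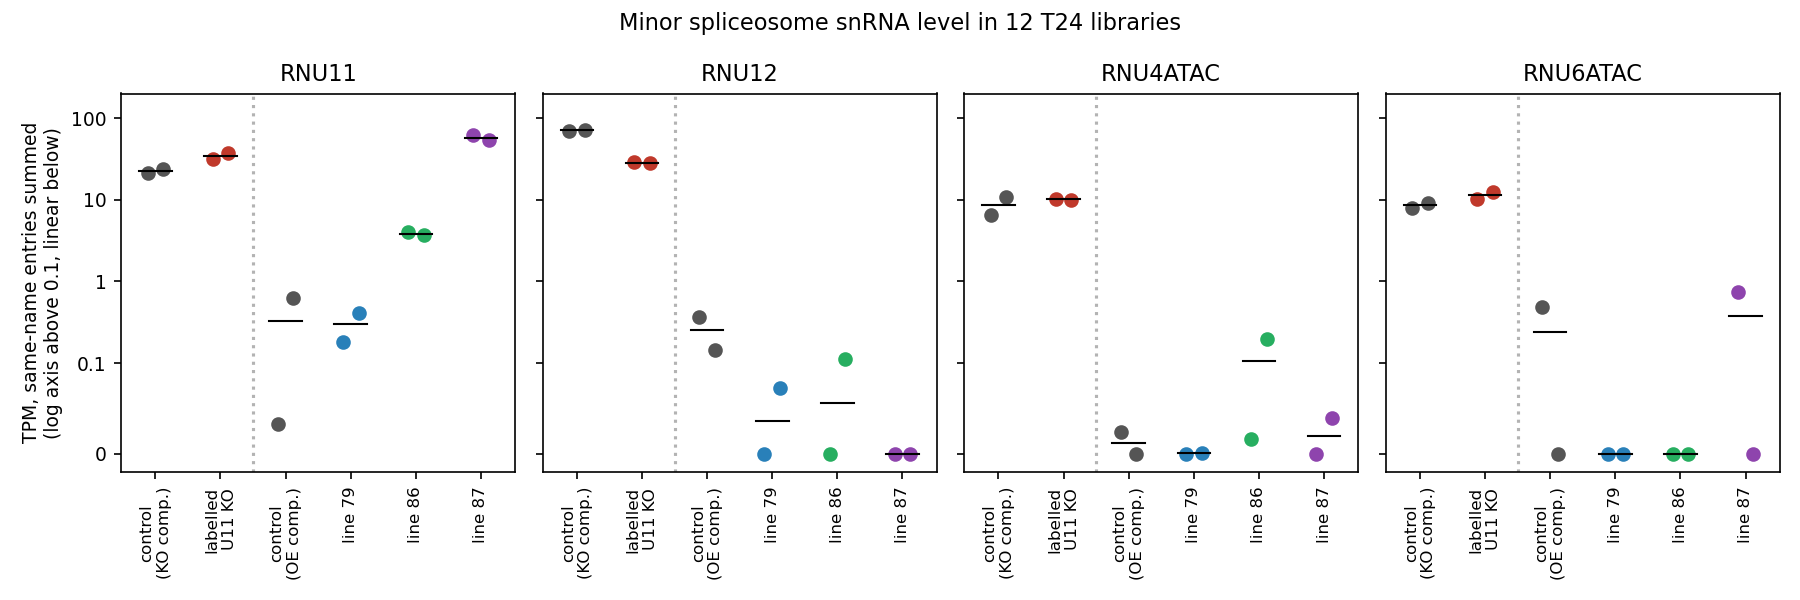
Summed TPM of each minor spliceosome snRNA (log axis above 0.1, linear below) in 12 T24 libraries, 1 point per library and a bar at the mean of each group of 2, with the knockout comparison left of the dotted line and the overexpression comparison right of it. RNU11 climbs from 0.183 TPM in its lowest line 79 library to 61.9 TPM in line 87, while the other 3 snRNAs stay under 1 TPM in every library right of the line.

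Taken over the 6 libraries labelled overexpression U11, RNU11 was not separated from the controls. The mean was 20.6 ± 28.9 TPM (SD, n = 6) against 0.328 ± 0.417 (n = 2), with an exact permutation p of 0.393 (two-sided). Here n counts libraries, not lines, and the SD includes the differences between lines. The test exchanged all libraries freely, without regard to the library series or to the 2 libraries of each line. Without line 87 replicate 1 the difference of the means fell from 20.3 to 12.1 TPM. The limma log2 difference of the sum was 2.47 (SE 1.55, adjusted P = 0.899). Of the 6 entries, 2 were tested in this comparison, both of RNU11 and both passing the filter through lines 86 and 87 (for the 134-base entry, line 87 alone), and 0 were called, against 1.93% of 15768 entries tested, with unadjusted limma P of 0.158 and 0.242. Summed RNU11 passed the filter only through lines 86 and 87, where it was high, so its differences by line are given as descriptions, and their P values are taken from the fit with no filter.

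By line, the summed RNU11 level differed from the controls by -0.003 in line 79 (log2, SE 0.23), where 2.43% of entries were called higher. In line 86 the difference was 1.91 (SE 0.23), where 1.59% of entries were called higher, and in line 87 it was 5.50 (SE 0.23), where 2.08% were. With no filter, the limma adjusted P was 0.0488 for line 86 and 0.00231 for line 87. Between lines, the difference was 3.59 for line 87 against line 86 (limma adjusted P with no filter = 0.00495), 5.50 for line 87 against line 79 (0.00105) and 1.91 for line 86 against line 79 (0.0166). In the filtered fits of those contrasts 2.99%, 5.64% and 6.3% of all entries were called higher. Within each library series the order of the lines was the same, with 0.183, 3.98 and 61.9 TPM for lines 79, 86 and 87 in one and 0.412, 3.72 and 53.6 TPM in the other. Line 79 was above the control of the first series (0.0334) and below that of the second (0.623). In bulk libraries, more U11 in each cell and more cells with U11 cannot be told apart.

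**Figure D4:**
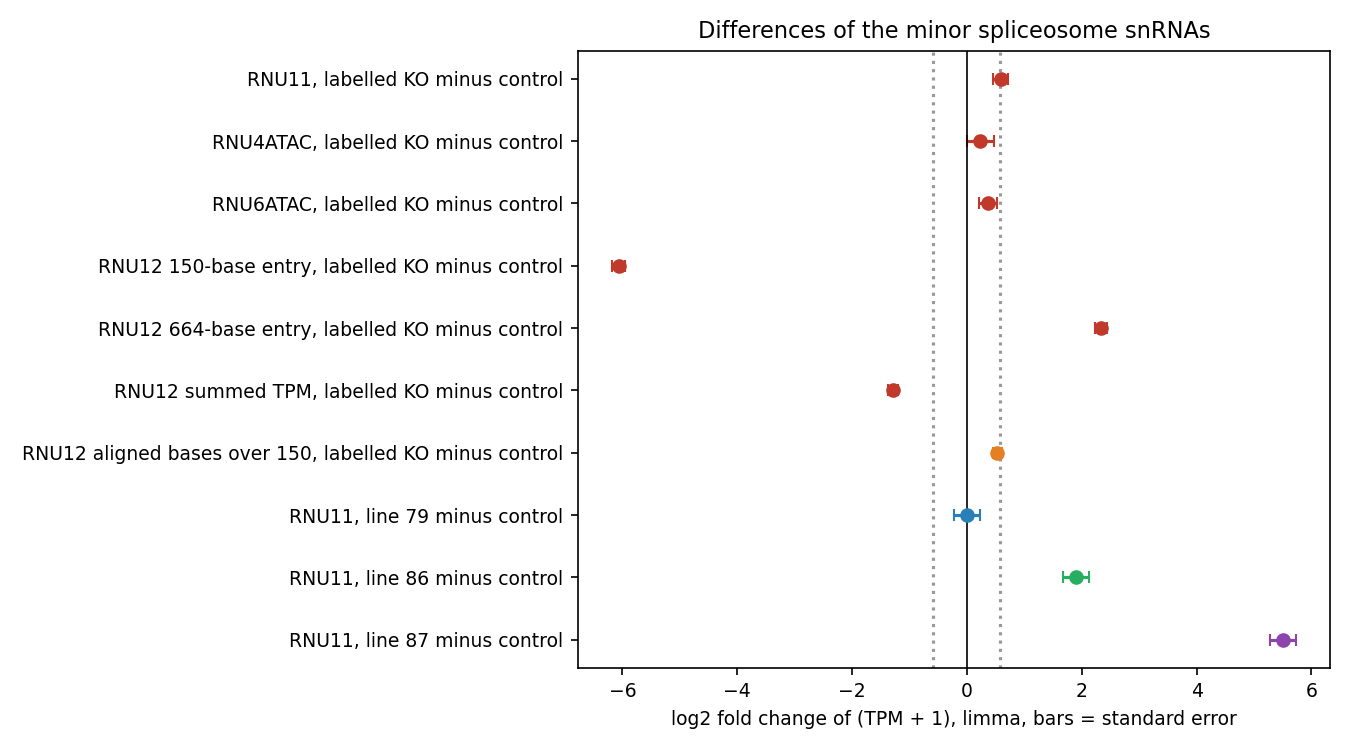
log2 fold change of (TPM + 1) with its standard error from limma for the snRNAs in the knockout comparison (red, with RNU12 also as aligned bases over 150 in orange) and for summed RNU11 in lines 79 (blue), 86 (green) and 87 (purple) against the controls of the overexpression comparison. Dotted lines mark a fold change of 1.5, and the RNU12 entries lie on opposite sides of 0 at -6.06 and 2.34, while RNU11 runs from -0.003 in line 79 to 5.50 in line 87.

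The RNU11 reads of the lines sat on the other entry. In lines 86 and 87, from 97.0% to 97.3% of the RNU11 bases were assigned to the 131-base entry, which was listed at 0 in all 4 libraries of the knockout comparison. Control replicate 2 had 99.1% and line 79 replicate 3 had 97.9% there, whereas control replicate 1 and line 79 replicate 1 had all of their few bases on the 134-base entry. The 131-base entry differed between line 87 and the controls by 5.49 (log2, SE 0.26) and the 134-base entry by 1.31 (SE 0.16). The 131-base entry reached 1 TPM in lines 86 and 87 alone and the 134-base entry in line 87 alone, so the filter fixed the direction of both, and both values are descriptions. The entries differ by 3 bases at the 3′ end.

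The region beside RNU11 was also read in the lines. RP11-442N24__B.1, an entry on the same strand that ends 19 bases before RNU11 starts, read 0 and 0.098 TPM in the controls, 0.335 and 0.717 in line 79, 0.431 and 0.725 in line 86, and 2.20 and 2.55 in line 87. Line 87 was above all 6 other libraries of this comparison, a description, since the entry reached 1 TPM there alone. In the knockout comparison it read 0.368 and 0.315 TPM in the controls and 0.198 and 0.475 in the libraries labelled U11 knockout, where the groups overlapped. Reads from a vector copy and from the chromosomal gene cannot be told apart within U11.

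RNU12, RNU4ATAC and RNU6ATAC stayed under 1 TPM in all 8 libraries of the overexpression comparison. RNU12 was listed at 0 in 4 of them, including both of line 87, and read at most 0.113 TPM in a line (line 86 replicate 3) against 0.370 and 0.145 TPM in the controls. Both controls were above all 6 lines' libraries, by an exact permutation p of 0.0357 (two-sided), the smallest that 6 against 2 allow. That test exchanged all 8 libraries freely, without regard to the library series or to the 2 libraries of each line. Groups failed to overlap in 9.87% of all tested entries. Either control alone was still above all 6, where 6 against 1 allows no exact p under 0.143. The most bases behind an RNU12 value here was 876. RNU4ATAC was listed at 0 in 3 of the 8 libraries and was highest at 0.195 TPM in line 86 replicate 3, from 106 aligned bases. RNU6ATAC was listed at 0 in 6 of the 8, with 0.485 TPM in control replicate 1 and 0.747 TPM in line 87 replicate 1. No order of the lines could be read for these 3 snRNAs at that depth.

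RNU4ATAC lies within CLASP1, a gene on the opposite strand that encodes a microtubule-binding protein, and within RP11-204L24.2 on its own strand. The strand setting of the counting is not given in the sources used here. CLASP1 read 23.7 to 34.2 TPM in the overexpression comparison, where RNU4ATAC was at or near 0, and RP11-204L24.2 read at most 0.586 TPM in any library. RNU6ATAC had no other entry within 1000 bases.

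Copies of these RNAs elsewhere in the genome had low values. The tables hold 64 entries named as their pseudogenes, 41 of RNU6ATAC, 17 of RNU4ATAC, 5 of RNU11 and 1 of RNU12, and 2 of them reached 1 TPM in a library. RNU11-2P (chr17:12036496-12036637, minus strand) read 0.747 and 0.774 TPM in the controls and 1.01 and 2.09 in the libraries labelled U11 knockout, and at most 0.203 in the overexpression comparison. RNU6ATAC16P (chr3:52560570-52560707, plus strand) read from 0.43 to 1.31 TPM in the knockout comparison and from 0 to 2.47 TPM in the overexpression comparison, where RNU6ATAC itself was mostly at 0. The 41 pseudogenes of RNU6ATAC summed to 2.44 to 3.43 TPM in the knockout comparison, against 7.86 to 12.6 TPM for the gene. In the overexpression comparison they summed to 1.16 to 4.60 TPM, more than the gene (0 to 0.747 TPM) in all 8 libraries.

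The RNAs of genes for proteins that work with these snRNAs were measured in every library, and the proteins were not. Of 15 genes of minor spliceosome proteins, 0 were called in the knockout comparison and 0 over the 6 overexpression libraries. Of all tested entries, 11.8% and 1.93% were called, shares at which few or none of 15 would be. The 15 genes had median log2 differences of 0.09 and -0.07, against 0.11 and -0.02 for all entries. SNRNP25 encodes a protein of the U11/U12 particle. It read 68.7 and 64.4 TPM in the controls and 45.4 and 52.1 in those labelled U11 knockout (-0.44, SE 0.11, limma adjusted P = 0.0771). SCNM1 read 21.4 and 24.7 against 31.1 and 31.6 TPM (0.43, SE 0.11, limma adjusted P = 0.0862). Both lay under the fold threshold, and neither overlapped between the groups, as was so for 60.2% of all tested entries. RNPC3, which bridges U11 and U12, had 3.66 and 4.92 TPM in the controls and 6.32 and 5.10 TPM in the labelled libraries (0.35, SE 0.18, limma adjusted P = 0.268). Against the controls, 1 of the 15 was called in line 79, RBM48, which was lower (-0.60, limma adjusted P = 0.052), and 0 were called in lines 86 and 87, beside 7.95%, 3.6% and 5.13% of all entries. RNPC3 in line 87 was 9.02 and 9.97 TPM against 12.9 and 11.8 TPM in the controls (-0.35, SE 0.12, limma adjusted P = 0.207).

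Of 11 genes of U4/U6 and U5 proteins that also serve U4atac/U6atac, such as PRPF31 and PRPF8, 0 were called in either comparison. Of 13 genes of factors for snRNA gene transcription, such as the SNAPC subunits, 0 were called either, beside the same 11.8% and 1.93% of all entries. The medians of these lists, in that order, were -0.01 and 0.11 in the knockout comparison, and -0.01 and -0.13 over the overexpression libraries. Of 17 factors of snRNA 3′ end processing, mostly Integrator subunits, 1 was called in the knockout comparison, INTS8, which was lower (-0.77, limma adjusted P = 0.064), and 3.15% of all tested entries were called lower. Of 20 factors of snRNA export and particle assembly, 2 were called lower, GEMIN8 of the SMN complex (-0.66, limma adjusted P = 0.0441) and CLNS1A, which prepares Sm proteins for the ring (-0.77, limma adjusted P = 0.0578). Over the overexpression libraries 0 of these 17 and 0 of these 20 were called. By line, INTS6 was called lower in line 79 (-0.75, limma adjusted P = 0.0213) and SNAPC4 lower in line 86 (-0.68, limma adjusted P = 0.027), and in these protein lists no others but RBM48 were called against the controls, beside the 7.95%, 3.6% and 5.13% of all entries called in lines 79, 86 and 87. Of the other RNAs without a poly(A) tail, 6 entries were tested in the overexpression comparison, at levels near the filter for several. Of the major spliceosome snRNA genes, only RNU6-8 was tested there. Over the 6 overexpression libraries RN7SK was called higher (0.64), beside 0.767% of all entries, but it read 0.254 and 0.998 TPM in the controls and 0.821 to 2.42 TPM in the lines, and so passed the filter only through the group where it is high. By line, RN7SK passed the call rule in line 87 (0.84) and the minor entry of RN7SL1 in line 86 (1.10), both with controls under 1 TPM, and RNU6-8, a U6 gene, was called lower in line 79 (-1.05, limma adjusted P = 0.138), beside the same shares.

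The entries whose pattern over the 12 libraries was most like that of RNU11, after removal of the mean of each library series, were TRIML2 (Pearson r = 0.97), TUBG1 (0.94), which encodes gamma-tubulin, and SIRPB1 (0.94), out of 9610 entries compared. TRIML2 read 19.98 and 22.3 TPM in the controls of the overexpression comparison, 18.8 and 19.4 in line 79, 32.8 and 35.3 in line 86, and 56.4 and 65.9 in line 87. It had the same order of lines as RNU11, and in the knockout comparison it read 19.9 and 19.1 TPM against 25.3 and 29.9. The other entries did not follow RNU11 there. TUBG1 read 102.0 and 100.1 TPM against 101.7 and 102.2, and SIRPB1 was lower, at 10.9 and 11.9 TPM against 8.43 and 7.10. For RNU12 on the summed TPM scale, which in aligned bases turns the other way, the most alike were FAHD1 (0.98), GINS2 (0.97), part of the replicative helicase, and NOP9 (0.97). GINS2 read 32.8 and 32.0 TPM in the controls and 20.3 and 19.7 in the libraries labelled U11 knockout. It was thus lower where RNU12 was higher in aligned bases, so the ranking for RNU12 holds for summed TPM only. These are descriptions over libraries that share their series and their groups. Of the 6 epithelial and mesenchymal markers, 1 was called higher in the knockout comparison, VIM (0.76, limma adjusted P = 0.0144), and 1 lower, KRT19 (-0.74, limma adjusted P = 0.0194), beside 8.61% of all tested entries called higher and 3.15% lower. The other 4 were not called, KRT18 standing at -0.46, KRT8 at 0.06, KRT7 at -0.01 and CDH2 at -0.009.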

How the data were processed

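T24 RNA was measured in 12 libraries. Reads were trimmed with fastp and aligned to hg38 with Hisat2, and Stringtie abundance tables were deposited by the authors, with coverage (mean aligned bases per position), FPKM (fragments scaled by length and depth) and TPM for 60504 entries. No counts were used, so DESeq2, which the study names, was not run. Aligned bases were computed as coverage times entry length. Aligned gigabases were the most common ratio of deposited coverage to deposited FPKM among entries above 1 FPKM. From 13.7% to 17.1% of those entries in a library had that ratio, and they were assumed to be entries with 1 transcript. TPM carries no counting error, so precision is the spread between libraries.

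Groups, replicate numbers and line labels came from the sample labels. Entries with at least 1 TPM in 2 libraries of a comparison entered limma 3.58.1 (lmFit, eBayes with trend; R 4.3.3) on log2(TPM + 1), which understates changes of low entries. P values were adjusted over all entries tested (Benjamini-Hochberg). A call was an unadjusted P under 0.05 with a fold change of at least 1.5, as in the study. Lines were fitted with 1 term for each label. Summed values were tested by exact permutation (two-sided). The script was tested on simulated data. The named genes were all members, pseudogenes reaching 1 TPM, overlapping entries, the 3 entries most like RNU11 and RNU12 among entries with at least 5 TPM on average in each series, and up to 4 called genes of each list. SNRNP25, SCNM1, RNPC3, POLDIP3, RP11-442N24__B.1, RN7SK, RMRP and ACTB levels were added as context with their values seen. The members and lists were chosen with earlier results of these data known. The alternatives were a pseudocount of 0.1, FPKM, coverage, median ratio scaling, other filters, no trend, adjusted P, all 4 controls, blocks, line means, the largest entry alone and each library left out. Python 3.11.15, numpy 2.4.6, pandas 2.3.3 and matplotlib 3.10.9 were used.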

Additional observations from a re-analysis of the deposited data

Results flagged for a closer look

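In a group of 6 overexpression libraries, RNU4ATAC was highest in line 86 replicate 3 at 0.195 TPM, and RNU6ATAC in line 87 replicate 1 at 0.747 TPM. Each lay farther from the next library, as a share of the range of the group, than Dixon's 95% limit for a group of 6. The limit marks about 1 in 20 groups by chance where values are spread, but not here: 5 of the 6 RNU6ATAC values are 0, so any single value above 0 would be marked, and the RNU4ATAC values also lie at or near 0. The values rest on 106 and 414 aligned bases.

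The summed RNU11 level differed between the lines that carry the same overexpression label. By limma on log2(TPM + 1), line 87 exceeded line 79 by 5.50, line 87 exceeded line 86 by 3.59, and line 86 exceeded line 79 by 1.91, in 2 of 2 libraries each time. RNU11 passed the filter of 1 TPM only through lines 86 and 87, so these differences are descriptions. In the limma fit with no filter the adjusted P was 0.00105, 0.00495 and 0.0166.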

How the results depend on the processing

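Of 684 values under an alternative setting, 627 were classed as unchanged. For a difference that meant the same direction and the same side of the threshold. Counts of entries called have neither and were classed by size. In the knockout comparison 2240 entries called with a pseudocount of 0.1, against 1688, was classed as unchanged. The 664-base RNU12 entry was called under every alternative run. Summed RNU11 stayed above the controls in lines 86 and 87 under every alternative run. The filter fixed that direction, so it is a description. Only the fit with no filter is free of this, and there summed RNU11 passed the call rule in both lines. The RNU11 call in the knockout comparison was lost with FPKM (0.48), coverage (0.51), median ratio scaling (0.44) and all 4 controls (2.85, limma adjusted P = 0.681), and on adjusted P. Summed RNU12 turned to 1.64 with all 4 controls and to 0.53 with all bases over the short entry, a setting added after seeing the data. Using all 4 controls mixes library series whose snRNA levels differ. In line 79, summed RNU11 turned to 0.29 (pseudocount 0.1), 0.15 (coverage) and 0.0048 (median ratio scaling). Over all overexpression libraries, the 134-base entry turned to -1.75 with all 4 controls, and summed RNU11 fell from 2.47 to 0.37. The 131-base entry passed the call rule there (2.60, limma adjusted P = 0.176). It passed the filter only through lines 86 and 87, which fixed its direction, so its call is a description. RNU4ATAC bases per gigabase turned to -4.04 in the knockout comparison with median ratio scaling. The cause was not tested.

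Entries called moved from 1688 to 984 (adjusted P) and 976 (all 4 controls) in the knockout comparison. Over the overexpression libraries they moved from 304 to 173 (FPKM), 175 (1 TPM in every library), 26 (adjusted P) and 3233 (all 4 controls). With FPKM they were 790, 322 and 456 for lines 79, 86 and 87 against the controls, 912 for 87 against 79, 624 for 87 against 86 and 1005 for 86 against 79. With 1 TPM in every library they were 370 (line 86) and 503 (line 87), and on adjusted P 216 (line 86), 418 (line 87) and 632 (87 against 86).

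With each library left out in turn, the log2 difference in the knockout comparison ranged from -0.096 to 0.57 for RNU4ATAC, from 0.23 to 0.52 for RNU6ATAC and from 0.47 to 0.70 for RNU11, and RNU11 was not called without control replicate 1 or labelled replicate 2. In line 79 against the controls it ranged from -0.45 to 0.24 (131-base entry), -0.016 to 0.21 (134-base entry) and -0.33 to 0.32 (sum), and for the 134-base entry in line 86 against line 79 from -0.092 to 0.14. The summed TPM difference ranged from -0.757 to 3.60 for RNU4ATAC in the knockout comparison, negative without control replicate 1, and in bases per gigabase from -119 to 264. For RNU6ATAC there it ranged from 1.62 to 4.06 TPM and 55.9 to 340 bases per gigabase, lowest without labelled replicate 2. In the overexpression comparison it ranged from 12.1 to 24.4 TPM and 629 to 1274 bases per gigabase for RNU11, lowest without line 87 replicate 1, from -0.339 to -0.114 TPM and -88.8 to -30.5 bases per gigabase for RNU12, from -8e-04 to 0.0418 TPM and -0.049 to 2.08 for RNU4ATAC, negative without line 86 replicate 3, and from -0.360 to 0.125 TPM and -17.8 to 6.26 for RNU6ATAC, positive without control replicate 1. Where a group kept 1 library, it was assumed to vary like the others.

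The shared replicate numbers did not pair the samples in the knockout comparison (correlation of deviations 0.024). In the overexpression comparison, libraries of one series deviated together weakly, with a correlation above 0 in every pair of groups (0.070 to 0.15). The main fits and the exact tests left the library series out. In the knockout comparison the replicate block gave 1706 calls. The block by library series gave 284 calls over the overexpression libraries and 1252, 567 and 807 in lines 79, 86 and 87. No block changed a call of a member.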
